A study of Mus musculus with 32 samples.

Results

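The matrix metalloproteinases, the ADAMTS proteases and the inhibitors that bind them were followed in satellite cells and in fibro-adipogenic progenitors (FAPs) of injured mouse muscle. The members were all genes of the count tables named Mmp, Timp, Adamts or Adamtsl with a number, which gave 51 of 55487 genes. They comprise 23 Mmp, 4 Timp, 19 Adamts and 5 Adamtsl genes. The rule goes by gene names only, but it was chosen with earlier results of these data known. Satellite cells are the stem cells of muscle fibres, and FAPs are mesenchymal cells that lie between the fibres. Both had been sorted from the supraspinatus, a rotator cuff muscle, of wild-type C57BL/6J mice aged 12 weeks and labelled male. In all groups the muscle had been injected with cardiotoxin, a venom toxin that destroys muscle fibres, and one muscle of a mouse had also received interscapular brown adipose tissue (BAT) of donors aged 3 weeks. The other muscle of the mouse had the injury only and is called control. Cells had been taken at day 3 or day 7, which gave 32 libraries in 8 groups of 4 (cell type, day, BAT or control) from 4 mice per day. The labels give both gates as CD45-/CD31-/Sca1+, and separate the 2 cell types by a7 integrin, which FAPs lack. No uninjured muscle, sham operation or other graft was analysed here, so BAT cannot be told apart from the operation itself.

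Metalloproteinases are zinc enzymes that are made as inactive precursors and cut collagens, laminins, fibronectin and other matrix proteins once the propeptide is removed. The 4 tissue inhibitors (TIMPs) bind the active site of these enzymes, and TIMP2 also helps MMP14, a protease of the cell membrane, to activate MMP2. ADAMTS proteases are secreted relatives that cut proteoglycans such as versican and aggrecan or trim the ends of procollagens, while the ADAMTS-like proteins share their binding domains but lack the protease. In injured muscle this machinery clears and rebuilds the matrix around the new fibres, and it takes part in the migration of cells.

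Total counts ranged from 19776741 to 46378918 per library, so that a gene with 0 counts could still be at 0.065 to 0.15 CPM (CPM is the count scaled to the library total; 3 counts, counting error only). Pax7, the satellite cell transcription factor, was at 21.0 to 164 CPM in the 16 satellite cell libraries and at most 1.20 CPM in FAPs. Summed over 7 satellite cell markers, FAP BAT replicate 1 of day 3 was at 199.9 CPM. The other FAP libraries of that day were at 2.56 to 6.39 CPM. At day 7 the same sum in FAP replicate 3 was 37.45 (control) and 38.2 CPM (BAT). The other FAP libraries of day 7 were at 3.51 to 7.93 CPM. Pdgfra, the FAP receptor, was at 251 to 436 CPM in FAPs and at most 19.1 CPM in satellite cells. Ly6a, which encodes Sca1, was at 2.38 to 42.8 CPM in satellite cells, against 426 to 1160 CPM in FAPs, although both gates are labelled Sca1+. At day 3, 3 libraries held many macrophage transcripts (summed level of 11 markers): satellite cell control replicate 3 at 1453 CPM, satellite cell BAT replicate 4 at 1637 CPM and FAP BAT replicate 1 at 4068 CPM. At day 7 the mouse of replicate 3 stood apart in all 4 libraries, with Xist, a transcript of female cells, at 163 to 355 CPM. The FAP markers summed to 8156 (BAT) and 8708 CPM (control) in the FAP libraries of that mouse. The other FAP libraries of day 7 were at 15420 to 32320 CPM, and those of day 3 at 5952 to 9007 CPM. In bulk samples, fewer cells of a type and less RNA per cell cannot be told apart.

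Of the 51 members 42 were detected, that is with 10 or more counts in 4 or more of the 32 libraries, as were 19350 of all 55487 genes. Detected were 16 Mmp, all 4 Timp, 17 Adamts and all 5 Adamtsl genes. The 9 others were the collagenase genes Mmp1a and Mmp1b (highest count in a library 1 and 9), the matrilysin gene Mmp7 (2), Mmp20, which acts in tooth enamel (0), Mmp21 (5), Mmp24 (13), Mmp27 (73, with 10 counts reached in 3 libraries), Adamts13, whose product cuts von Willebrand factor (7), and Adamts18 (41, reached in 2 libraries). On chromosome 9, 10 Mmp genes lie side by side within 427.1 kb (mm10, positions 7272514 to 7699585). In that cluster Mmp3, Mmp8, Mmp10, Mmp12 and Mmp13 were detected and Mmp1a, Mmp1b, Mmp7, Mmp20 and Mmp27 were not.

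The promoters of this cluster are shown because its members shared a sequence that no other member searched had. The motif searched was TGANTCA, where N is any base. This pattern covers the site of AP-1, the dimer of Fos and Jun proteins, but is wider than it. It reads the same on both strands, and it was searched from 250 bases before to 50 bases after each start site in RefSeq promoters (GRCm38.p6). It was found in 8 of the 10 cluster genes (80%), in 0 of the other 26 members searched and in 8.97% of 27025 genes. Entries of 36 of the 51 members were searched, and Adamts19 was left out of the search. The 70 bases below lie before the start site, 5′ to 3′ on the plus strand of chromosome 9, with the motif in capitals, for the 4 detected genes that held it.
Mmp13, chr9:7272444-7272513: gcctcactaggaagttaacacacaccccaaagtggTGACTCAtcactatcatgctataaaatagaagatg
Mmp12, chr9:7347304-7347373: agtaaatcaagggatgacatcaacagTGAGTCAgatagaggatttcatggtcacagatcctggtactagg
Mmp3, chr9:7445752-7445821: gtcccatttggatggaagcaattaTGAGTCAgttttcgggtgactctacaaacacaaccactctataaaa
Mmp10, chr9:7502269-7502338: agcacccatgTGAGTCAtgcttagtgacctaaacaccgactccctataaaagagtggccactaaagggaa
The motif began 35, 44, 46 and 63 bases before the start in Mmp13, Mmp12, Mmp3 and Mmp10. For Mmp12 the table holds 2 starts, of which 1 had the motif. Mmp1a, Mmp1b and Mmp7, with the motif, were not detected, nor was Mmp20 (TGAATCA), and Mmp8, which was detected, had none. A match describes the sequence only, and no binding of AP-1 was measured.

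Per kilobase of exon, the scale used to compare genes, the inhibitor gene Timp1 had the highest level of all members, 386.2 CPM per kb averaged over the 8 groups. It was first in every group but control FAPs at day 7, where Mmp2 was at 499 ± 41.9 and Timp1 at 461 ± 254 CPM per kb (SD, n = 4). Mmp2 was only eighth in control satellite cells at day 3, at 2.95 ± 2.11 CPM per kb. Over the group means Mmp2, a gelatinase gene, came next at 172.3 CPM per kb, then Adamts1 at 39.9, Adamts4 at 35.4, Timp2 at 30.7 and Timp3 at 26.1 CPM per kb. Mmp14, Mmp23, Mmp19, Mmp3 and Mmp11 followed at 24.1 to 11.7 CPM per kb, and Adamts2 and Adamts14 at 9.41 and 8.24 CPM per kb. Timp4 was far below the other inhibitors at 0.111 CPM per kb. Summed per kb, the Mmp genes of control FAPs were at 0.405 ± 0.110 (SD, n = 4) of the summed Timp level at day 3 and at 1.40 ± 0.469 at day 7. In control satellite cells this ratio was 0.106 ± 0.0425 at day 3 and 0.635 ± 0.162 at day 7. Mmp2 made up 49.5% ± 1.23 and 68.7% ± 5.26 of the Mmp sum in control FAPs at the 2 days, and Timp1 94.3% ± 1.68 and 77.4% ± 11.3 of the Timp sum. The ratio is one of transcripts, was not tested, and says nothing of active enzyme.

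**Figure D1:**
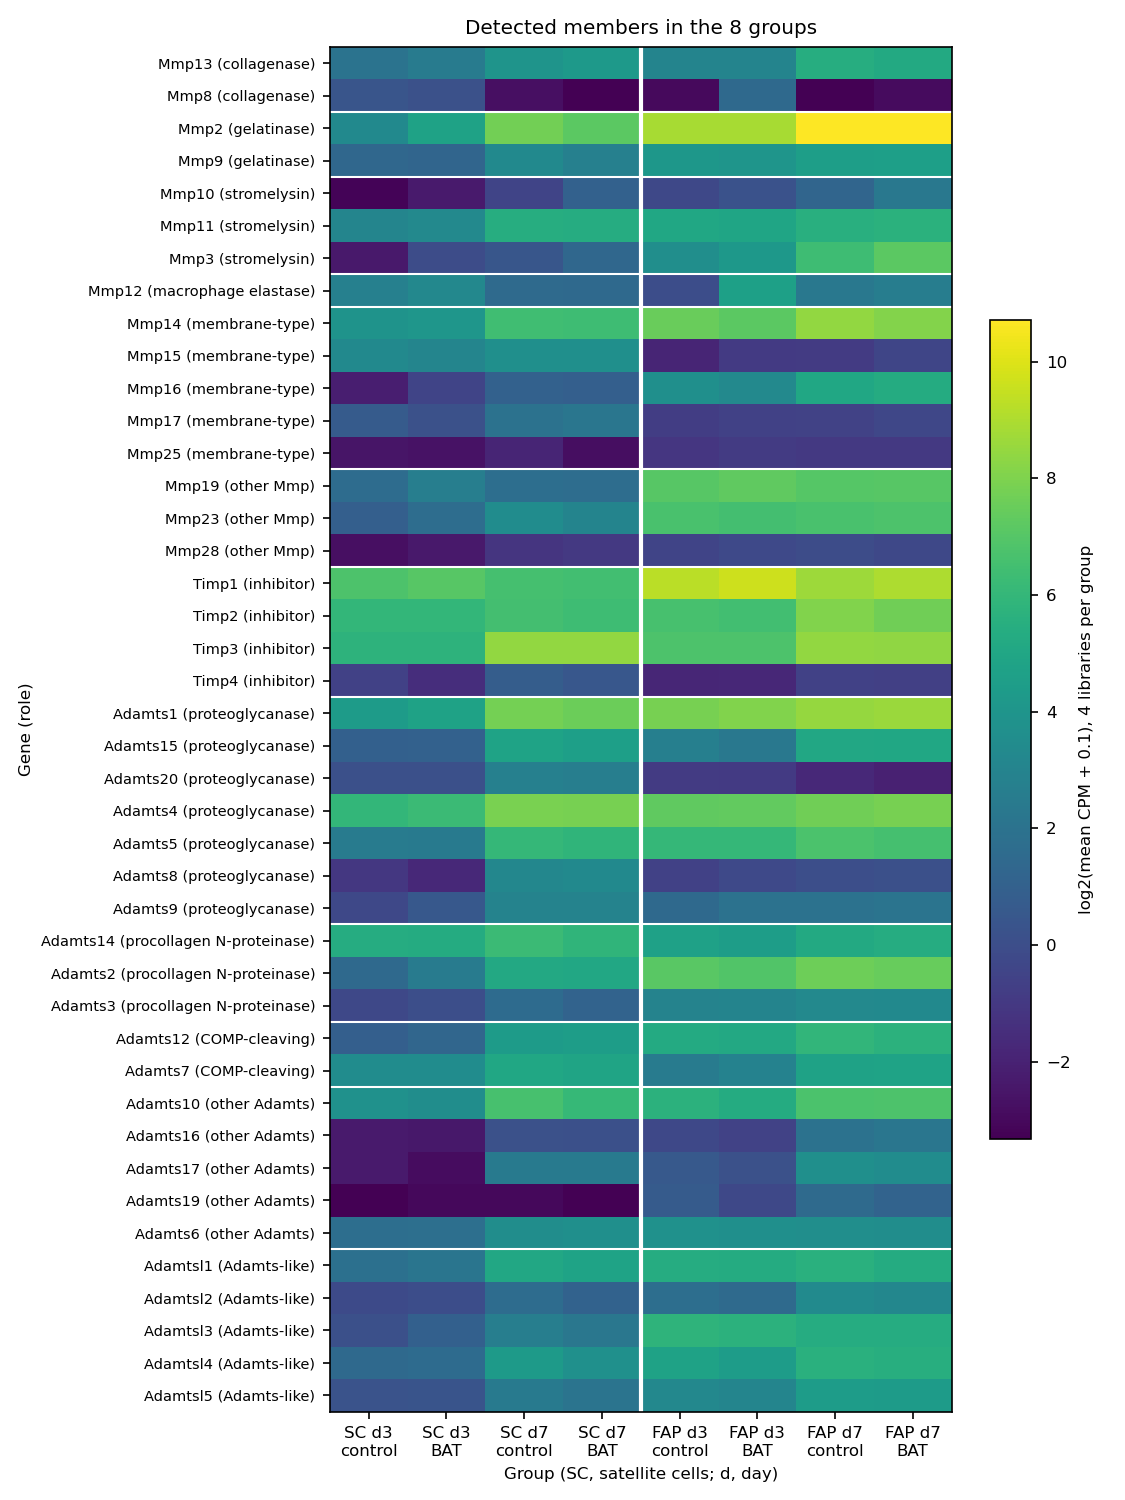
Mean level of the 42 detected members (rows, grouped by role) in the 8 groups (columns; SC, satellite cells; d, day), as log2 of the mean CPM of 4 libraries plus 0.1. Most rows are brighter in FAPs, to the right of the white line, while Mmp15, Mmp17, Adamts8 (day 7) and Adamts20 are brighter in satellite cells; colours compare groups within a row, since CPM is not divided by length.

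The inhibitors were present in both cell types. Timp1 was at 125, 107, 124 and 89.7 CPM in replicates 1 to 4 of control satellite cells on day 3 and at 102, 109, 87.2 and 83.8 CPM at day 7. In control FAPs it was at 466, 854, 573 and 543 CPM at day 3 and at 357, 304, 739.9 and 236 CPM at day 7. All FAP libraries lay above all satellite cell libraries, and the FAP library at 739.9 CPM was that of the day 7 mouse of replicate 3. Timp2, the partner of Mmp14 and Mmp2, was at 60.8, 61.1, 65.7 and 67.3 CPM in control satellite cells on day 3 and at 119.8, 96.8, 48.2 and 106 CPM at day 7. In control FAPs Timp2 was at 133, 86.5, 97.5 and 85.5 CPM at day 3 and at 305, 268, 141 and 336 CPM at day 7. At day 7 replicate 3 was the lowest in both cell types. Timp3, an inhibitor that stays bound to the matrix and also blocks ADAMTS proteases, was at 80.3, 57.8, 33.4 and 47.2 CPM in control satellite cells on day 3 and at 267, 583, 229 and 300.3 CPM at day 7. Timp3 in control FAPs was at 93.7, 138, 94.9 and 121 CPM at day 3 and at 433, 559, 149 and 269 CPM at day 7. The 2 cell types thus overlapped in Timp3 at day 7. Timp4 was at most 2.68 CPM in any library. Of these genes Timp1 (X:20870166-20874735), Timp3 (10:86300372-86349506) and Timp4 (6:115241892-115252205) each lie inside a synapsin gene on the opposite strand (Syn1, Syn3 and Syn2). Timp3 and Syn3 share 1733 exon bases, Timp4 and Syn2 90 and Timp1 and Syn1 0, and with no strand stated for the counting, reads in shared exons cannot be assigned. The same holds for Mmp19 with Tmem198b (789 bases), Adamts9 with A730049H05Rik (1381) and Adamts8 with Gm29724 (489).

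Among the metalloproteinases Mmp2, a gelatinase that cuts denatured collagen and basement membrane collagen, was at 10.8, 6.77, 19.4 and 2.83 CPM in control satellite cells on day 3 and at 209, 288, 76.9 and 277 CPM at day 7. In control FAPs Mmp2 was at 516, 429.8, 469 and 447 CPM at day 3 and at 1762, 1754, 1471 and 1742 CPM at day 7. The 4 groups did not overlap, and FAPs at day 7 were highest. Mmp14, the membrane protease that activates MMP2, was at 18.2, 11.4, 17.9 and 12.2 CPM in control satellite cells on day 3 and at 101, 111, 48.8 and 85.9 CPM at day 7. Mmp14 in control FAPs was at 204, 150.1, 195 and 168 CPM at day 3 and at 320.5, 250.5, 286 and 508 CPM at day 7, again without overlap of the groups. Mmp19 and Mmp23 marked the FAPs on both days. In control FAPs Mmp19 was at 114 to 162 CPM (median 134) at day 3 and at 94.1 to 177 CPM (median 121.5) at day 7. In control satellite cells Mmp19 was at 1.40, 1.16, 9.15 and 0.503 CPM at day 3 and at most 5.45 CPM at day 7. The satellite cell library at 9.15 CPM was the one rich in macrophage transcripts, and its Pdgfra was at 13.9 CPM against 0.229 to 0.871 CPM in the other 3. Mmp23, which has an unusual cysteine-rich domain, was at 90.5 to 106 CPM in control FAPs at day 3 and at 82.1 to 131 CPM at day 7. Control satellite cells held 0.755 to 4.20 CPM of Mmp23 at day 3 and 7.41 to 18.2 CPM at day 7. Mmp3, the stromelysin that also activates other precursors, was at 10.6, 13.9, 12.1 and 12.7 CPM in control FAPs at day 3 and at 90.3, 55.1, 134 and 42.7 CPM at day 7. Its highest level was in FAP BAT replicate 3 at day 7, 410.3 CPM against 39.9 to 76.8 CPM in the other 3 libraries of that group. Mmp11, a stromelysin activated inside the cell by furin, was at 7.21 to 9.01 CPM in control satellite cells on day 3 and at 34.9 to 50.3 CPM at day 7, and at 24.2 to 37.1 and 32.2 to 58.4 CPM in control FAPs.

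Among the ADAMTS proteases Adamts1 was at 27.6, 16.5, 25.2 and 14.0 CPM in control satellite cells on day 3 and at 151, 346, 170.3 and 212 CPM at day 7. In control FAPs Adamts1 was at 225, 215, 214 and 268 CPM at day 3 and at 302, 394, 534 and 189 CPM at day 7. The 2 cell types were apart at day 3 and overlapped at day 7. Adamts4, an aggrecan-cutting protease, was at 52.5, 55.7, 61.1 and 83.6 CPM in control satellite cells on day 3 and at 203, 408, 136 and 204 CPM at day 7. Control FAPs had 141, 179, 145 and 169 CPM of Adamts4 at day 3 and 331, 176, 158 and 149.5 CPM at day 7. Adamts2, which trims the N-terminal propeptide of fibrillar procollagens, was at 2.46, 1.51, 5.47 and 1.37 CPM in control satellite cells on day 3 and at 24.6, 68.4, 22.0 and 27.7 CPM at day 7. Its level in control FAPs was 180.4, 119.6, 125 and 129 CPM at day 3 and 185, 198, 142 and 255 CPM at day 7, above every satellite cell library. Adamts14, another procollagen N-proteinase, overlapped between the cell types, at 22.7 to 51.6 CPM in control satellite cells and 16.8 to 38.7 CPM in control FAPs at day 3, and at 42.6 to 101 and 25.3 to 49.0 CPM at day 7.

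**Figure D2:**
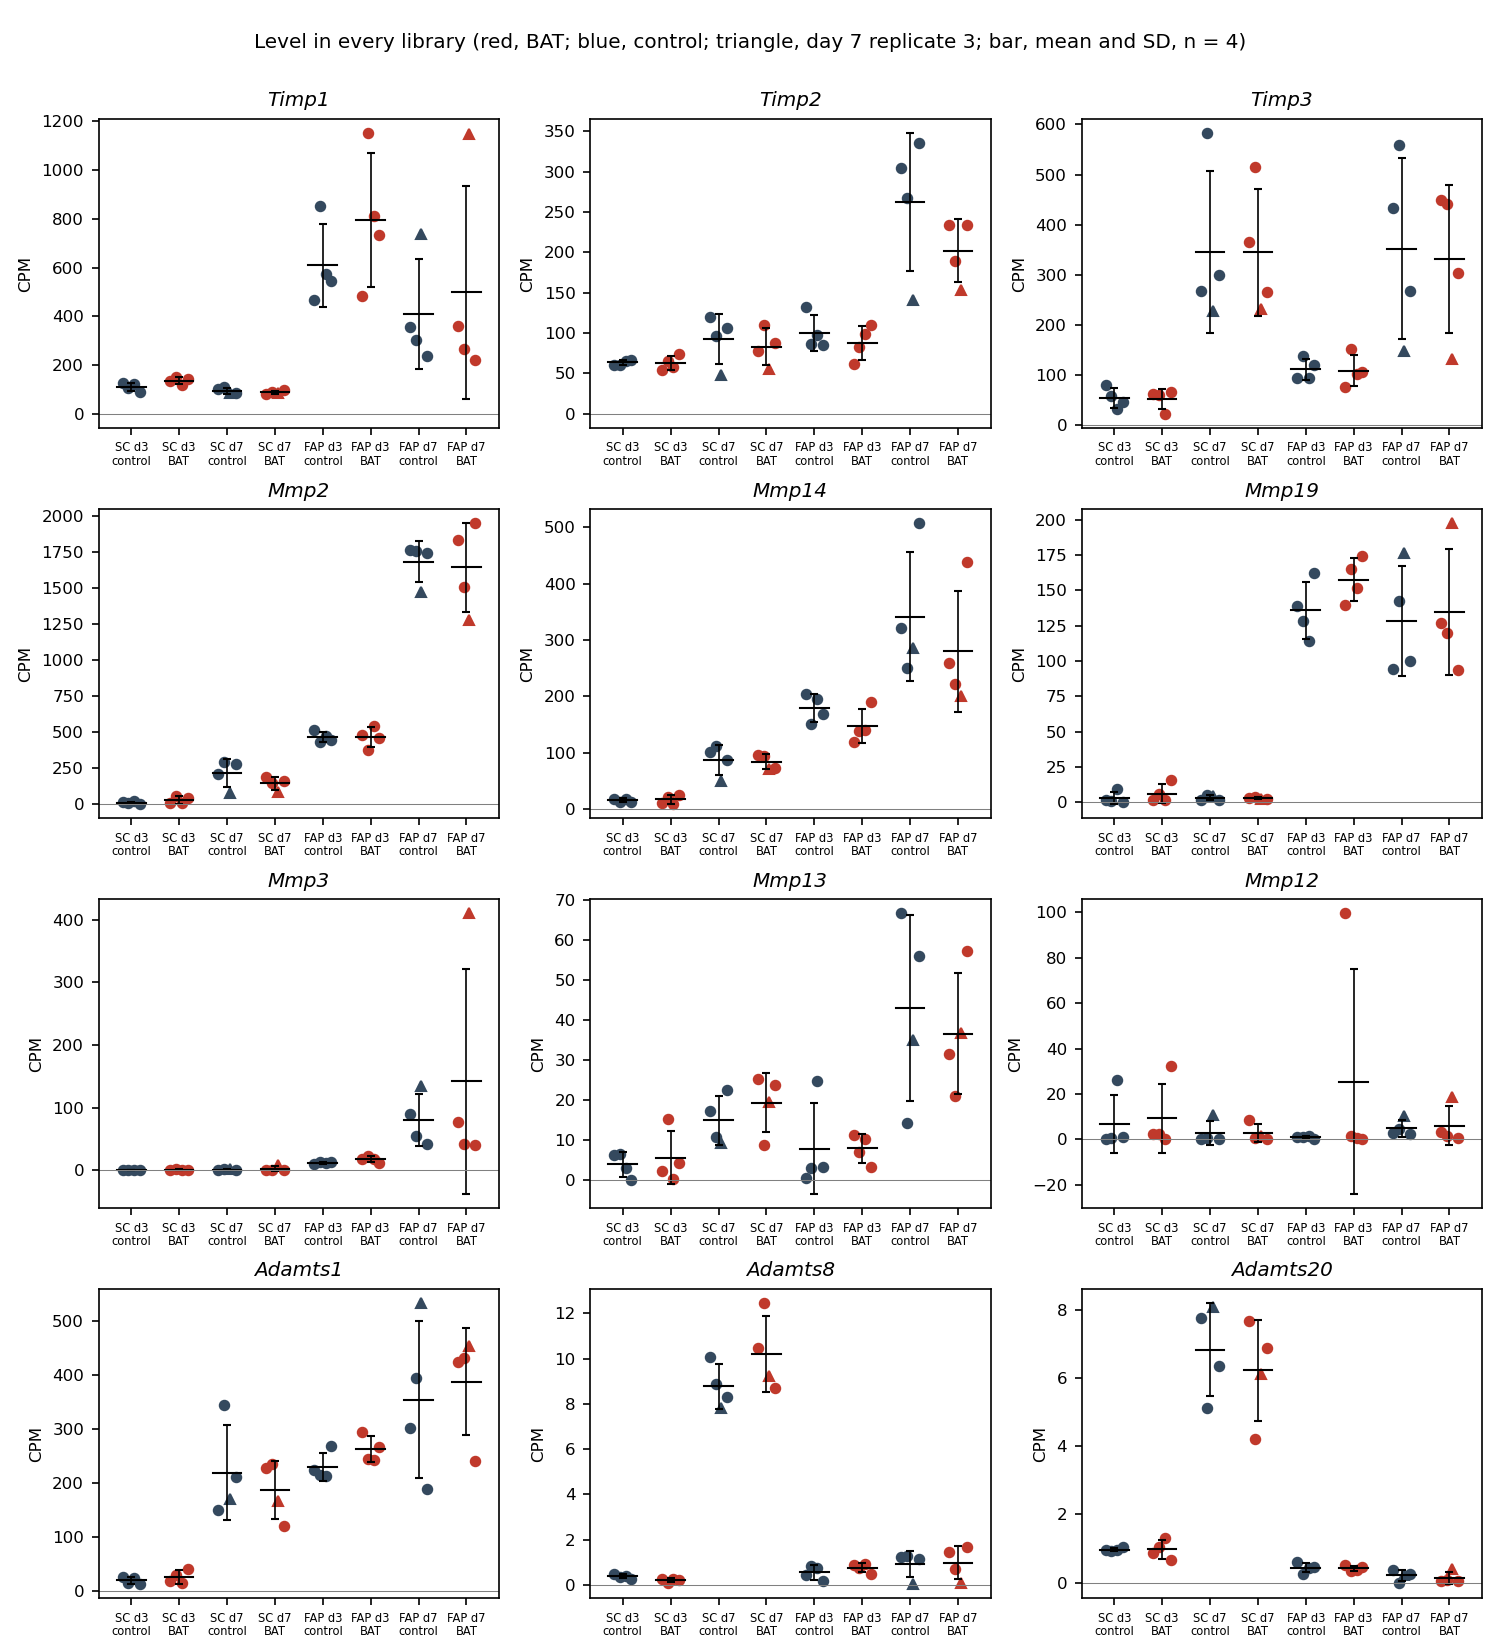
Level in CPM of 12 members in every library, by group (blue, control; red, BAT; triangle, day 7 replicate 3; bar, mean and SD of 4 libraries). Timp1, Mmp2, Mmp14 and Mmp19 are higher in FAPs, Adamts8 and Adamts20 stand out in satellite cells at day 7, and single libraries carry the Mmp12 and Mmp3 means.

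Satellite cells and FAPs of the same muscles were compared to ask which cell type carried each member. In control muscle at day 3, 30 members were higher in FAPs and 6 in satellite cells, of the 39 that passed the filter on low counts. Over all genes tested 71.7% were called, 35.9% higher in FAPs and 35.8% in satellite cells (edgeR's quasi-likelihood test, Benjamini-Hochberg adjusted p under 0.05, mouse as a block), and the median log2 difference, satellite cells minus FAPs, was -3.07 over the members and 0.03 over all genes. At day 7, 27 were higher in FAPs and 4 in satellite cells of 40 that passed the filter, against 22.6% and 22.5% of all genes tested (45.1% in all). The median log2 difference was -1.76 over the members and 0.05 over all genes. Both shares for FAPs lie above the share of all genes. Without the mouse of replicate 3 the counts higher in FAPs and in satellite cells were 31 and 4 at day 3, where its satellite cell library was rich in macrophage transcripts, and 23 and 5 at day 7. BAT muscle gave 29 higher in FAPs and 3 in satellite cells of 35 at day 3 (35.4% and 31.1% of all genes, 66.5% in all), and 27 and 4 of 40 at day 7 (25.3% and 24.5%, 49.9% in all). Of the 36 members called in control and the 32 called in BAT muscle at day 3, 30 were called in the same direction in both (83.3% and 93.8%), and 29 of 31 and 31 (93.5% of each) at day 7.

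By role, all 5 Adamts-like genes and both gelatinase genes were higher in FAPs in control muscle on both days. Mmp3 was 119.5-fold higher in FAPs at day 3 (log2 difference -6.90 ± 0.55 SE, edgeR adjusted p = 3.69e-05) and 89.4-fold at day 7. Control satellite cells at day 3 had 0 to 9 counts of Mmp3 per library (at most 0.198 CPM). For Mmp16 they had 2 to 6 counts (0.076 to 0.16 CPM). The sizes of the day 3 differences of Mmp3 and Mmp16 thus rest on levels near the floor. The membrane-type protease gene Mmp16 differed by a log2 of -6.74 ± 0.23 and -4.58 ± 0.46 at the 2 days, Mmp19 by -6.15 ± 0.59 and -5.83 ± 0.22, and Mmp23 by -6.13 ± 0.46 and -3.68 ± 0.27. Mmp2 was 60.0-fold higher in FAPs at day 3 (-5.91 ± 0.49, edgeR adjusted p = 4.24e-05) and 11.8-fold at day 7 (-3.56 ± 0.30, edgeR adjusted p = 0.000157). Adamts2 differed by -5.92 ± 0.40 and -3.01 ± 0.26 and Adamtsl3 by -6.27 ± 0.47 and -3.15 ± 0.30. Adamts19 had 0 counts in the 4 control satellite cell libraries at day 3 and 165 in FAPs, at least 64.1-fold higher in FAPs (floor of 3 counts over the group). At day 7 it had 2 and 292 counts, a ratio of 149.5 (exact 95% counting interval 41.0 to 1240). Mmp12, the macrophage elastase, differed by -3.22 ± 0.98 at day 7 (edgeR adjusted p = 0.0318). The edgeR adjusted p was 0.0837 to 0.0991 when mouse 1, 2 or 4 was left out. Without the mouse as a block Mmp12 was at -1.24 (edgeR adjusted p = 0.486). Of 6 macrophage markers tested in control muscle at day 7, 3 were also higher in FAPs and 0 in satellite cells. The part of macrophages in the Mmp12 difference was not tested.

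The inhibitor genes Timp1, Timp2 and Timp3 were higher in FAPs at day 3 in control muscle (log2 difference -2.54 ± 0.13, -0.75 ± 0.11 and -1.20 ± 0.18). At day 7 Timp1 (-2.38 ± 0.28) and Timp2 (-1.93 ± 0.12) were higher in FAPs, and Timp3 was at -0.38 ± 0.22 (edgeR adjusted p = 0.187). In BAT muscle at day 7 Timp3 was at -0.31 ± 0.19 (edgeR adjusted p = 0.216), and without replicate 3 it was at -0.54 (edgeR adjusted p = 0.00705).

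A few members were higher in satellite cells. Mmp15, a membrane-type protease, was at 6.25, 6.68, 12.7 and 14.1 CPM in control satellite cells at day 3, against 0.0372 to 0.297 CPM in FAPs (log2 difference 5.70 ± 0.38, edgeR adjusted p = 1.71e-05). At day 7 it was at 6.53 to 16.5 CPM against 0.206 to 0.694 CPM (4.44 ± 0.44, edgeR adjusted p = 0.000294). The groups were apart on both days, and also in BAT muscle (4.58 ± 0.61 and 3.89 ± 0.40). Adamts20, a versican-cutting protease known from pigment cells, was at 0.927 to 1.05 CPM in control satellite cells against 0.260 to 0.595 CPM in FAPs at day 3 (1.06 ± 0.32, edgeR adjusted p = 0.0216). At day 7 the levels were 5.13 to 8.10 CPM against 0 to 0.367 CPM (4.76 ± 0.57, edgeR adjusted p = 0.000611). The day 3 difference missed the threshold without mouse 1, 2 or 3 (edgeR adjusted p = 0.0510 to 0.0796), while that of day 7 did not. Mmp17, which is held to the membrane by a lipid anchor, was higher at day 3 (1.5 ± 0.42) and day 7 (2.42 ± 0.82), but missed the threshold in the fits without mouse 1 or 2 at day 3 and without mouse 1, 2 or 4 at day 7. Adamts7, a protease of cartilage oligomeric matrix protein (0.80 ± 0.17), Adamts14 (0.51 ± 0.15) and Timp4 (1.56 ± 0.53) were also higher in satellite cells at day 3. Their day 7 differences were -0.08 ± 0.31, 0.60 ± 0.32 and 1.15 ± 0.54, which did not pass. At day 3 Adamts14 missed the threshold without mouse 1 (edgeR adjusted p = 0.0818) and Timp4 without mouse 1, 2 or 4 (0.0671 to 0.0933), and the libraries of both overlap between the cell types. Adamts8, a protease of the proteoglycanase group, was at 7.82 to 10.1 CPM in control satellite cells at day 7 against 0.0453 to 1.28 CPM in FAPs (3.02 ± 0.57, edgeR adjusted p = 0.00468). At day 3 it was at 0.274 to 0.492 against 0.152 to 0.855 CPM (-0.56 ± 0.49, edgeR adjusted p = 0.335). Pericyte markers were higher in satellite cells too, with a summed level at day 7 of 514 to 1657 CPM against 17.0 to 40.2 CPM in control FAPs (5 of 5 passed), as were 4 of 5 Schwann and glial markers, at 119 to 746 CPM against 7.77 to 11.8 CPM. The part of these cells in the levels of Adamts8, Adamts20 and other members was not tested. In BAT muscle Adamts8 was lower in satellite cells at day 3 (-2.12 ± 0.51, edgeR adjusted p = 0.0100) and higher at day 7 (3.15 ± 0.55, edgeR adjusted p = 0.00243).

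**Figure D3:**
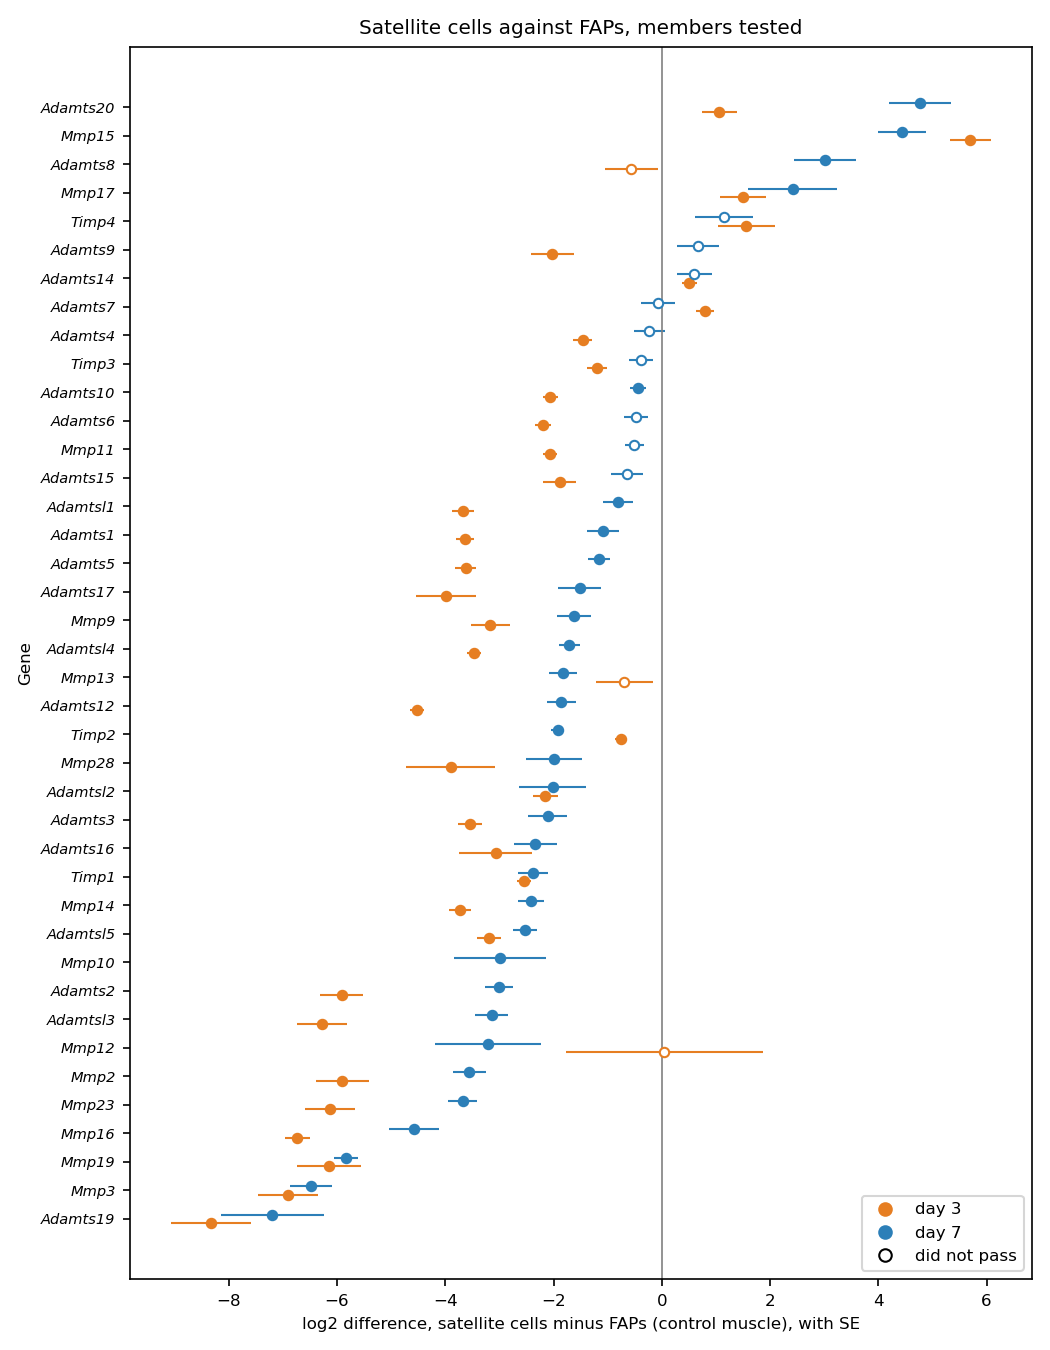
Log2 difference, satellite cells minus FAPs, with its SE, for the members tested in control muscle at day 3 (orange) and day 7 (blue); filled points passed the edgeR test. Most points lie left of 0, those of day 7 usually nearer to 0 than those of day 3, and Mmp15 and Adamts20 lie to the right on both days.

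Day 7 was compared with day 3 to ask how the members moved as the muscle regenerated. These days are of different mice and separate tables, so that day cannot be told apart from either. In control satellite cells 27 members rose and 1 fell, of 36 that passed the filter on low counts, against 29.7% and 29.8% of all genes tested, 59.4% in all (edgeR adjusted p under 0.05). The median log2 change was 2.25 over the members and 0.03 over all genes. In control FAPs 17 members rose and 0 fell of 38, against 11.5% and 11.4% of all genes tested (23.0% in all), with medians of 0.87 and 0.09. In BAT muscle 21 rose and 1 fell of 36 in satellite cells (28.5% and 24.4% of all genes, 52.9% in all), and 19 rose and 0 fell of 39 in FAPs (10.3% and 12.6%, 22.9% in all). Without the day 7 libraries of replicate 3, the counts that rose and fell were 31 and 1 (satellite cells) and 19 and 1 (FAPs) in control muscle, and 26 and 1 and 19 and 2 in BAT muscle. The calls of control and BAT muscle shared 21 members in satellite cells, in the same direction, (75.0% of 28 and 95.5% of 22) and 15 in FAPs (88.2% of 17 and 78.9% of 19).

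In control satellite cells all 7 proteoglycanase genes and all 5 Adamts-like genes rose. Adamts17 rose by a log2 of 5.43 ± 0.61 (0 to 0.229 CPM at day 3, 3.45 to 7.41 CPM at day 7), and Adamts8 by 4.16 ± 0.26 (edgeR adjusted p = 3.67e-06). Mmp2 rose 16.8-fold (4.07 ± 0.59, edgeR adjusted p = 0.000252). Mmp16 rose by 3.58 ± 0.57, Adamts15 by 3.52 ± 0.29, Adamts2 by 3.42 ± 0.54, Adamts12, a protease of cartilage oligomeric matrix protein, by 3.20 ± 0.22 and Adamts5, the main aggrecanase of cartilage, by 3.17 ± 0.22. Of the inhibitor genes Timp3 rose (2.31 ± 0.38, edgeR adjusted p = 0.000519). Timp2 was at 0.19 ± 0.23 (edgeR adjusted p = 0.504) and Timp4 at 1.17 ± 0.53 (edgeR adjusted p = 0.0773), but without control replicate 3 of day 7 both passed, at 0.46 and 1.44 (edgeR adjusted p = 0.00261 and 0.0417). In BAT muscle Timp4 passed without BAT replicate 3 of day 7 (2.33, edgeR adjusted p = 0.0085). Timp1 was the 1 member that fell, by 0.58 ± 0.16 on the log2 scale in control muscle (edgeR adjusted p = 0.0117, and 0.0543 without control replicate 4 of day 7) and by 0.87 ± 0.14 in BAT muscle (edgeR adjusted p = 0.00049). The satellite cell libraries of day 7 also held more transcripts of several other cell types, and fewer of macrophages. Of 7 macrophage markers tested, 6 fell in control muscle (median log2 change -4.57) and 5 in BAT muscle (-5.10), and 0 rose. The 5 pericyte and smooth muscle markers summed to 514 to 1657 CPM at day 7, against 30.8 to 57.7 CPM at day 3, and all 5 passed in control and in BAT muscle. The 5 Schwann and glial markers summed to 99.6 to 746 CPM against 16.1 to 68.3 CPM, with all 5 passing, and the 7 FAP markers to 827 to 1749 CPM against 143 to 594 CPM, with 3 passing in control muscle. The 4 tenocyte markers summed to 275 to 294 CPM in control libraries of day 7 outside replicate 3, which was at 37.1 CPM, against 17.9 to 50.5 CPM at day 3, with 3 higher and 1 lower. In BAT muscle 0 tenocyte markers were higher and 1 was lower. Their sum there was 151 to 211 CPM at day 7 outside replicate 3, which was at 38.4 CPM. At day 3 it was 281.8 CPM in BAT replicate 2 and 20.3 to 39.9 CPM in the other BAT libraries. The endothelial markers (5 genes) summed to 15.4 to 22.0 CPM in control muscle against 2.42 to 8.48 CPM, with 2 of the 3 tested passing. Pdgfra itself was at 1.02 to 7.0 CPM in control satellite cells at day 7. The part of these cells in the rise of the members was not tested.

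In control FAPs Adamts17 rose 9.24-fold (log2 change 3.21 ± 0.41, edgeR adjusted p = 0.00165), from 1.04 to 1.75 CPM at day 3 to 4.59 to 24.6 CPM at day 7. Mmp3 rose 6.82-fold (2.77 ± 0.33, edgeR adjusted p = 0.00142), and its libraries of the 2 days did not overlap. Mmp12 rose by 2.50 ± 0.69, but with an edgeR adjusted p of 0.0642 and 0.0689 without control replicate 1 or 2 of day 3. Adamts16 (2.47 ± 0.39), Adamts15 (2.44 ± 0.30), Adamts7 (2.33 ± 0.32), Mmp2 (1.92 ± 0.16) and Timp3 (1.75 ± 0.39) also rose. Of the MMP2 activation trio, Mmp2 rose 3.8-fold, Timp2 2.73-fold (1.45 ± 0.25, edgeR adjusted p = 0.00449) and Mmp14 1.96-fold (0.97 ± 0.19, edgeR adjusted p = 0.00672). Mmp19 (0.01 ± 0.23) and Mmp23 (0.06 ± 0.16) did not pass. Timp1 was at -0.52 ± 0.35 (edgeR adjusted p = 0.302) in control and at -0.64 ± 0.51 (edgeR adjusted p = 0.384) in BAT muscle. Without the day 7 library of replicate 3, Timp1 was at -0.96 (edgeR adjusted p = 0.0268) and -1.48 (edgeR adjusted p = 0.00653). Of the marker genes tested in control FAPs, 4 of 7 FAP, 3 of 4 pericyte and 4 of 4 erythroid markers rose. So did 1 of 4 endothelial and 1 of 3 Schwann and glial markers. In FAPs of BAT muscle 5 of 7 FAP, 2 of 4 pericyte and the 1 adipocyte marker tested rose. There 5 of 10 macrophage markers fell, against 0 of 7 in control FAPs. The part of these cells was not tested. Of the 4 tenocyte markers 3 also rose in control FAPs and 2 in FAPs of BAT muscle. Summed, they were at 1454 to 3636 CPM at day 7 outside replicate 3, at 266 (control) and 155 CPM (BAT) in replicate 3, and at 174 to 449 CPM at day 3, and their part was not tested. In BAT muscle 12 members were called without FAP BAT replicate 3 of day 3.

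The day courses differed between the cell types. In control muscle the log2 change was higher in satellite cells for 20 members and higher in FAPs for 1, of 41 that passed the filter. The shares of all genes tested were 15.4% and 8.39%, 23.8% in all (edgeR, interaction of cell type and day). A higher change need not be a rise in both cell types. In control FAPs Adamts20 was at 0.260 to 0.595 CPM at day 3 and 0 to 0.367 CPM at day 7. Adamtsl3 was there at 48.0 to 66.5 and 24.2 to 62.0 CPM. The largest differences among those called were in Adamts20 (3.74 ± 0.70), Adamts8 (3.63 ± 0.85), Adamtsl3 (3.22 ± 0.63), Adamts2 (2.95 ± 0.52), Adamtsl1 (2.89 ± 0.40), Adamts9 (2.71 ± 0.62), Adamts12 (2.69 ± 0.34) and Adamts1 (2.57 ± 0.40). Of the 17 Adamts genes tested 12 were in this group, as were 6 of 7 proteoglycanase genes. Timp2 was the member that went the other way (-1.15 ± 0.16, edgeR adjusted p = 0.00101). It was at 63.7 ± 3.28 and 92.8 ± 31.2 CPM (SD, n = 4) in satellite cells of control muscle at day 3 and 7, and at 100.5 ± 22.1 and 262 ± 85.4 CPM in control FAPs. Timp1 (0.19 ± 0.35) and Timp3 (0.83 ± 0.31, edgeR adjusted p = 0.0793) did not pass. For Adamts8 the edgeR adjusted p was 0.0508 without replicate 2 of day 3. Of the markers of other cells, 3 of 5 pericyte, 1 of 5 Schwann and glial and 1 of 7 FAP markers also had the higher change in satellite cells. Of 4 tenocyte markers 1 had the higher change in satellite cells and 1 in FAPs. For erythroid markers 0 of 4 had the higher change in satellite cells and 1 in FAPs. Of 9 macrophage markers 0 were called (median -2.26). The part of these cells was not tested.

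**Figure D4:**
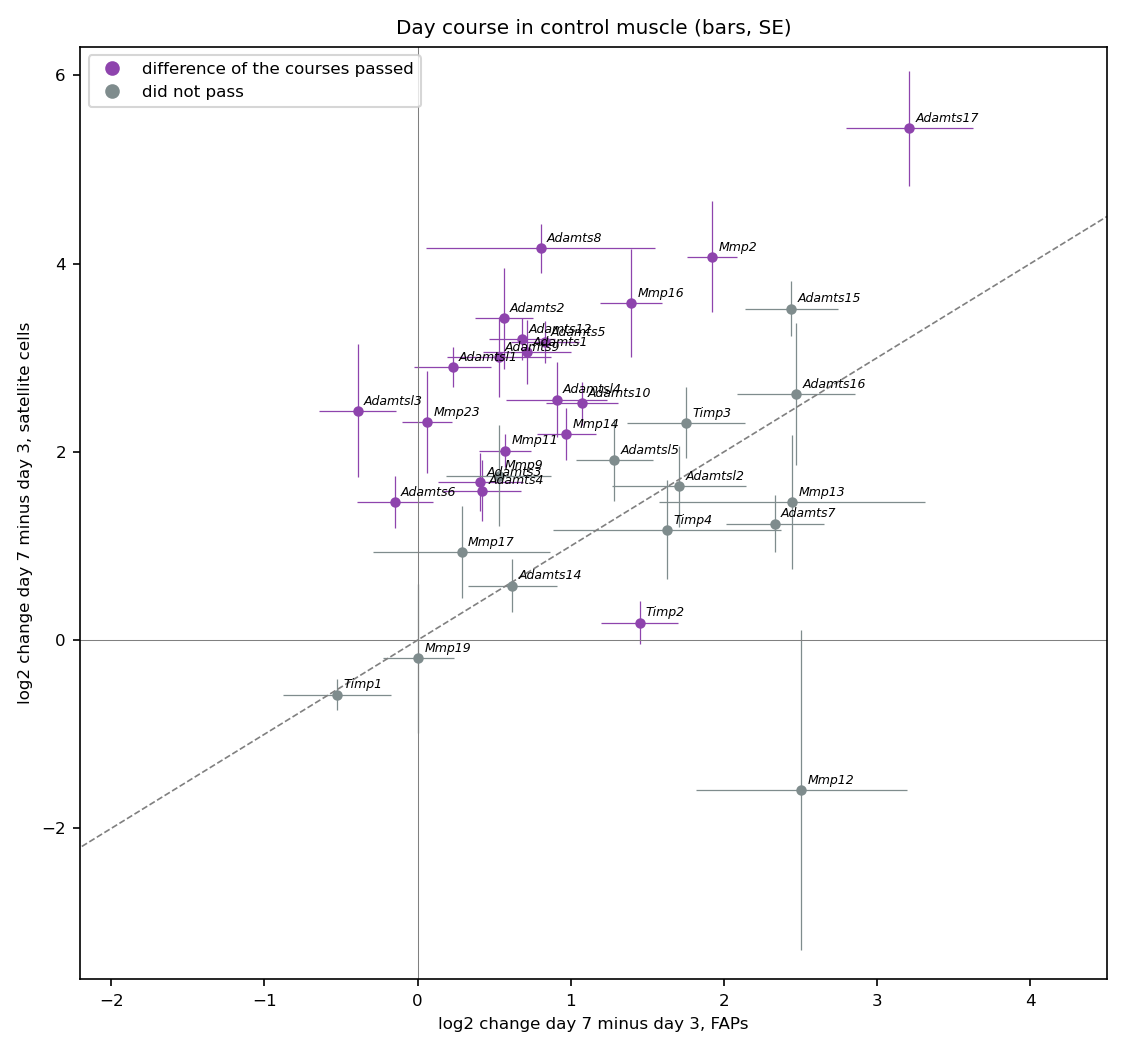
Log2 change from day 3 to day 7 in control FAPs (x axis) and control satellite cells (y axis) with SE, for members tested in both; the dashed line marks equal change, and purple points passed the test of the difference. Purple points other than Timp2 lie above the line, and Timp1 sits near the line below 0 on both axes.

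BAT and control muscle of the same mice were compared to ask whether the graft altered the members. None passed the test in any group. In satellite cells 0 of 32 members tested were called at day 3 (0% of all genes) and 0 of 38 at day 7 (0.0178% of all genes, edgeR adjusted p under 0.05). In FAPs 0 of 38 were called at day 3 (0.0188% of all genes) and 0 of 40 at day 7 (0% of all genes). At an unadjusted edgeR p under 0.05 there were 0 and 6 in satellite cells (3.02% and 7.48% of all genes) and 6 and 2 in FAPs (4.58% and 4.89%). DESeq2 called 0 and 1 in satellite cells (0.335% and 0.302% of all genes with an adjusted p) and 1 and 0 in FAPs (0.331% and 0.208%). The differences between the BAT effects of the 2 days, tested as interactions, gave 0 of 38 in satellite cells and 0 of 41 in FAPs (0% of all genes in both), with 2 and 2 at an unadjusted p under 0.05 (5.12% and 3.35% of all genes), and DESeq2 called 1 and 0 (0.0450% and 0%).

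At day 7 in satellite cells the member with the smallest p was Adamts10, a protease that binds fibrillin microfibrils. It was at 121, 77.7, 71.0 and 129 CPM in control and at 101, 46.2, 48.8 and 74.3 CPM in BAT muscle of mice 1 to 4, lower with BAT in 4 of 4 mice. The log2 change was -0.57 ± 0.12 (edgeR adjusted p = 0.383). DESeq2 gave an adjusted p of 0.0104, and edgeR without the filter on low counts 0.0044. Adamtsl4 (-0.52 ± 0.15) and the gelatinase gene Mmp9 (-0.75 ± 0.24) were next, each lower in 4 of 4 mice, with edgeR adjusted p of 0.626 and 0.627. In FAPs at day 3 the smallest p was that of Timp1. It was at 466, 854, 573 and 543 CPM in control and at 483, 1152, 813 and 735 CPM in BAT muscle, higher with BAT in 4 of 4 mice although the groups overlap. The log2 change was 0.39 ± 0.094 (edgeR adjusted p = 0.957), and DESeq2 gave an adjusted p of 0.0243. The BAT library of replicate 1, with the many macrophage transcripts, showed the least difference. Adamts10 was also lower with BAT in 4 of 4 mice there (-0.37 ± 0.10, edgeR adjusted p = 0.957), and Mmp3 higher in 3 of 4 (0.53 ± 0.17).

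At day 3 in satellite cells Timp4 (-1.11 ± 0.46) and Mmp17 (-0.55 ± 0.24) were lower with BAT in 4 of 4 mice and Timp1 (0.30 ± 0.13) was higher in 3 of 4, with an edgeR adjusted p of 1.00 for each. Without the 2 mice of the macrophage-rich libraries they were at -0.78, -0.78 and 0.29. At day 7 in FAPs Mmp14 was at 320.5, 250.5, 286 and 508 CPM in control and at 259, 221, 201 and 438 CPM in BAT muscle, lower in 4 of 4 mice (-0.29 ± 0.095, edgeR adjusted p = 0.953). Timp2 was lower in 3 of 4 (-0.31 ± 0.12), and Mmp23 was higher in 3 of 4 (0.165 ± 0.098). For the difference of the BAT effects between days the smallest p in satellite cells were those of Adamts8 (1.18 ± 0.37), Mmp17 (0.97 ± 0.40) and Mmp16 (-1.85 ± 0.89), each with an edgeR adjusted p of 0.904. In FAPs they were those of Adamts10 (0.45 ± 0.16), Mmp16 (0.65 ± 0.24) and Mmp23 (0.28 ± 0.14), with an edgeR adjusted p of 1.00.

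**Figure D5:**
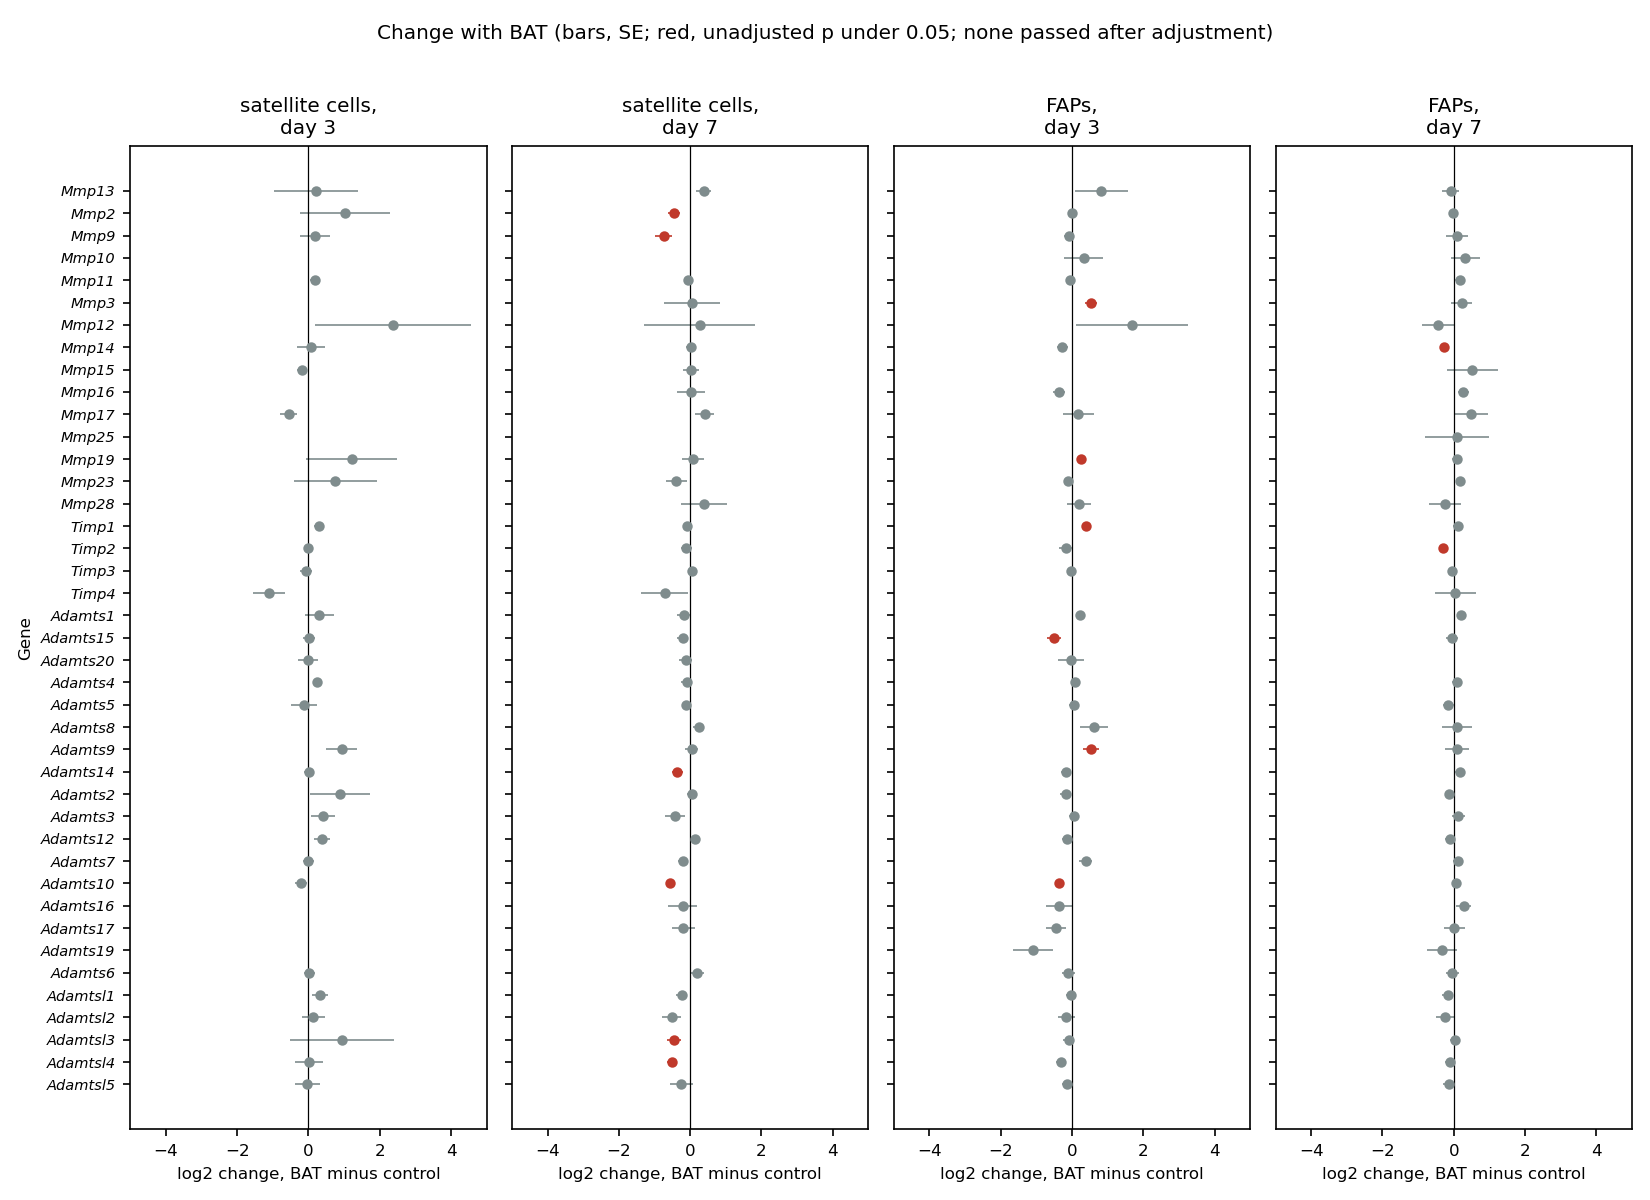
Log2 change with BAT (x axis) with its SE for every member tested, by cell type and day; red points have an unadjusted edgeR p under 0.05, and none passed after adjustment. Most points sit within 1 of 0, and the widest bars belong to Mmp12 and other members that single libraries carry.

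Mmp12 and Mmp8, the collagenase of neutrophils, followed the macrophage-rich libraries of day 3. Mmp12, which macrophages make, was at 25.9, 32.1 and 99.7 CPM in satellite cell control replicate 3, satellite cell BAT replicate 4 and FAP BAT replicate 1, and at most 2.42 CPM in the other 13 libraries of that day. Mmp8 was at 4.87, 3.52 and 10.3 CPM in these 3 libraries and at most 0.375 CPM in the other 13. The neutrophil markers (6 genes) summed to 83.5, 12.0 and 26.0 CPM in the same libraries, the highest of each group. Mmp12 was not called by edgeR at day 3 between cell types or in a BAT comparison, and Mmp8 did not pass the filter on low counts in any comparison. Mmp13, the collagenase of bone and cartilage and a cluster neighbour, was at 3.01, 4.36 and 11.4 CPM in these 3 libraries, within the 0.137 to 24.8 CPM of the other 13. It was at 6.36, 6.60, 3.01 and 0.137 CPM in control satellite cells on day 3 and at 0.706, 2.97, 24.8 and 3.22 CPM in control FAPs. At day 7 it was at 9.34 to 22.5 CPM and 14.3 to 66.8 CPM. It was higher in FAPs at day 7 (-1.82 ± 0.26, edgeR adjusted p = 0.00129).

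The proteins around this system were counted from a list of activators and other matrix proteases (27 genes), other inhibitors and clearance (14) and substrates (13). In control muscle at day 3 the activator list had 22 members higher in FAPs and 2 in satellite cells of 25 tested, the inhibitor list 11 and 1 of 12, and the substrate list 9 and 1 of 11, against 35.9% and 35.8% of all genes. At day 7 these were 20 and 0 of 25, 11 and 1 of 12, and 8 and 2 of 11, against 22.6% and 22.5%. Bmp1, the procollagen C-proteinase, differed by -3.64 ± 0.17 and -1.21 ± 0.15 at the 2 days, Reck, a membrane-bound inhibitor of metalloproteinases, by -3.71 ± 0.27 and -2.64 ± 0.21, and Vcan, the versican gene, by -3.0 ± 0.13 and -2.30 ± 0.14. From day 3 to day 7 in control satellite cells 12 activators rose and 5 fell of 24, 7 and 2 of 12 in the inhibitor list, and 10 and 0 of 11 substrates, against 29.7% and 29.8% of all genes. In control FAPs 6 and 0 of 25, 3 and 1 of 11, and 7 and 0 of 11 did so, against 11.5% and 11.4%, or 23.0% in either direction. Plau, the urokinase that starts the plasmin cascade, rose in control satellite cells (1.21 ± 0.28) and was at -0.31 ± 0.34 in FAPs. Furin, a convertase of precursors, was at 0.26 ± 0.25 and -0.06 ± 0.21. With BAT 0 genes of the 3 lists were called in any of the 4 groups.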

How the data were processed

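RNA of sorted satellite cells and FAPs was sequenced in 32 libraries made with the SMARTer Ultra Low kit, according to the labels. Expected counts per gene, not normalized, had been deposited in one table per day. DRAGEN and mm10 are named per the submitters' processing notes, and the annotation, the counting and its strand setting were not found in the sources at hand. Of 55774 entries 287 repeats were removed, and 0 columns lacked a sample. Of the values above 0, 71.8% were whole with no tolerance, and rounding moved no library total by more than 0.00034%.

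Groups and replicate numbers come from the titles. In each group 3 libraries carry a number, and the fourth was named replicate 4. Mouse codes in the titles pair BAT and control libraries and, within a day, the cell types. At day 3 satellite cell replicate 3 and FAP replicate 4 hold no code and were taken as 1 mouse, an inference. Where a mouse is left out across cell types at day 3, it has its satellite cell number. The mouse was a block in comparisons within a day and in the interactions, since the labels say that pairs share a mouse. The deviations of partners from their group means correlated at -0.0812 to 0.427 on average. No libraries were alike within counting noise (lowest chi-square per degree of freedom 17.1).

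Rounded counts were tested with edgeR 4.0.16 (quasi-likelihood, TMM, filterByExpr with minimum count 10 and total 15), each comparison on its own groups, in R 4.3.3, with Benjamini-Hochberg adjustment over all genes. SE is the absolute log2 change over the square root of F. Tests were first run on simulated data. Levels are plain CPM as mean ± SD (n = 4), per kb of merged exons (GENCODE M21) between genes. All 51 members were found there. Alternatives were DESeq2 size factors, DESeq2 1.42.0, no filter, other blocking and leaving out each mouse or library.

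The members and lists were chosen with earlier results of these data known. Values in every library are given for the 4 Timp genes and the 10 other members with the highest level per kb (by range for some). In each comparison up to 8 called members per direction, or else the 3 with the smallest p, are named, and the pathway lists are given by counts with up to 6 examples, and others named (such as Mmp8 or Mmp13) were chosen after their values were seen. Adamts19 is given without position.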

Additional observations from a re-analysis of the deposited data

Results flagged for a closer look

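In 12 of 112 groups of 4 libraries (14 members, 8 groups) 1 library stood far from the other 3 by Dixon's test. Chance gives about 1 in 20 such groups. In the day 7 mouse of replicate 3, Timp1 in FAPs with BAT was at 1147 CPM (others 220.6 to 361 CPM), Mmp2 in control FAPs at 1471 CPM (others 1742 to 1762 CPM), and Mmp3 with BAT at 410.3 CPM in FAPs (others 39.9 to 76.8 CPM) and at 8.43 CPM in satellite cells (others 0.199 to 0.654 CPM). Of the 42 detected members, 17 lay above and 17 below the range of the other 3 mice in FAPs with BAT (30.8% and 26.6% of all 19350 detected genes), and 11 and 10 in control FAPs (27.4% and 23.4%). In satellite cells 3 lay above and 20 below with BAT (25.4% and 34.5%), and 6 and 25 in control (30.9% and 30.8%). In the mouse of replicate 1 at day 7, Adamts4 in FAPs was at 331 CPM in control (others 149.5 to 176 CPM) and at 471 CPM with BAT (others 141 to 159.5 CPM). The other libraries were Adamts1 in FAP BAT replicate 4 at day 7 (240.8 CPM, others 425 to 455 CPM), Adamts2 in satellite cell control replicate 2 at day 7 (68.4 CPM, others 22.0 to 27.7 CPM) and in FAP control replicate 1 at day 3 (180.4 CPM, others 119.6 to 129 CPM), Timp3 in satellite cell BAT replicate 3 at day 3 (22.9 CPM, others 60.8 to 65.7 CPM), Mmp19 in satellite cell control replicate 3 at day 3 (9.15 CPM, others 0.503 to 1.40 CPM) and Timp4 in FAP BAT replicate 4 at day 3 (0.462 CPM, others 0.109 to 0.110 CPM).

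The change from day 3 to day 7 differed between the cell types by the interaction test in control muscle. The difference of log2 changes, satellite cells minus FAPs, was 3.74 for Adamts20, 3.63 for Adamts8, 3.22 for Adamtsl3, 2.95 for Adamts2, 2.89 for Adamtsl1, 2.71 for Adamts9, 2.69 for Adamts12, 2.57 for Adamts1 and -1.15 for Timp2.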

How the results depend on the processing

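Of 149 counts of called members under the alternatives, 144 stayed within 1.5 times of the reported count. The 5 others were the 0 members of the BAT comparison in satellite cells at day 7, which became 3 without the filter on low counts (Adamts10, Mmp9 and Mmp2) and 1 with DESeq2, the 0 in FAPs at day 3 and in the satellite cell interaction of BAT and day, which became 1 each with DESeq2, and the 19 in FAPs of BAT muscle between days, which became 12 without FAP BAT replicate 3 of day 3. The cause was not tested. Leaving out each mouse or library in turn gave 32 to 36 and 22 to 30 members between cell types in control muscle at day 3 and 7, 29 to 32 and 30 to 33 in BAT muscle, 28 to 32 and 21 to 27 between days in satellite cells (control, BAT), 13 to 20 and 12 to 21 in FAPs, 14 to 23 for the difference of the day courses, and 0 to 0 in the 6 comparisons with BAT. Without the mouse as a block (no replicate block), the cell type counts were 34, 27, 30 and 30, the day course count 20 and the BAT counts 0. A replicate block in the day comparisons, where the mice differ and share only a number, gave 28, 23, 18 and 13.

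Of the values of named members 1312 kept their direction and their side of the threshold, 38 lost it, 12 gained it and 4, none of them called, changed sign. These 4 were Timp4 between cell types in BAT muscle at day 7 without mouse 1 (-0.19, with a range of -0.19 to 0.901 over the mice left out), Timp2 between days in satellite cells of BAT muscle without BAT replicate 2 of day 7 (-0.053, range to 0.281), and the difference of day courses of Timp1 without mouse 4 of day 7 (-0.053, range to 0.521) and of Timp4 without mouse 3 of day 7 (0.022, range from -0.902). TMM scaling over all libraries moved 6 of 112 levels by more than 1 SD. With 4 mice per group, a change shared by fewer mice, and members under about 1 CPM, were the hardest to measure.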

Other observations

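The day courses of members that are neighbours in the genome are given side by side. Adamts8 and Adamts15 lie 20.1 kb apart on chromosome 9, on opposite strands. From day 3 to day 7 Adamts15 rose in control FAPs (log2 change 2.44 ± 0.30, edgeR adjusted p = 0.00159), from 4.20 to 9.78 CPM to 22.4 to 54.0 CPM, and Adamts8 was at 0.80 ± 0.75 (edgeR adjusted p = 0.46). At day 7 Adamts8 was at 0.0453 CPM in control FAP replicate 3 and at 1.13 to 1.28 CPM in the other replicates. Its day 3 levels were 0.152 to 0.855 CPM. In control satellite cells both rose, Adamts8 by 4.16 ± 0.26 and Adamts15 by 3.52 ± 0.29. Adamts1 and Adamts5 lie 53.1 kb apart on chromosome 16, on the same strand. Both rose in control satellite cells (3.06 ± 0.34 and 3.17 ± 0.22), and in control FAPs Adamts5 rose (0.83 ± 0.22) and Adamts1 was at 0.71 ± 0.29 (edgeR adjusted p = 0.0974). No test compared the genes of a pair with each other or with other pairs, and both pairs were chosen after their values were seen. Of a further pair on chromosome 2, Adamts13, with 42 counts over all libraries, was too low to compare, and Adamtsl2 rose by 1.64 ± 0.43 in control satellite cells and 1.71 ± 0.44 in control FAPs.

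In the Mmp cluster on chromosome 9, 6 of 10 genes have TATAAA on the given strand within the 50 bases before the start site, against 3.15% of all genes with a RefSeq promoter. The same sequence was found in 2 of the 26 other members searched, Adamts1 and Adamtsl2.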
